A study of Mus musculus with 15 samples.

Results

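The genes of mouse mitochondrial DNA were followed in embryonic stem cells (ESCs) that lose the transcription factor OCT4, encoded by *Pou5f1*. The members were taken by position alone, as every gene that the count files place on the mitochondrial chromosome. There were 37 of 48709 genes, namely 13 mRNAs, 2 rRNAs and 22 tRNAs, and the coordinates of all 37 equalled those of the GENCODE annotation of GRCm38. On this chromosome 28 members lie on the plus strand, and 9 lie on the minus strand, which are *mt-Nd6* and 8 tRNA genes.

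RNA was sequenced in 15 libraries from 2 kinds of ESC. CreER ESCs (genotype Oct4Fl/-; CAG CreER, strain Mixed 129SV C57BL/6) hold 1 floxed *Pou5f1* allele opposite a null allele, and 500 nM 4-OHT activates the Cre that deletes it. They were sampled untreated (0 h) and at 12, 18, 24 and 36 h of 4-OHT, with 2 libraries at each time. O4AID ESCs (derived from ZHBT, strain 129SV) are Oct4-/- and carry TetOFF Oct4, and the broadly active CAG promoter drives both Oct4AID and Tir1, so that they live on an OCT4 fused to a degron, and 500 µM of the auxin IAA marks that fusion for degradation. They were sampled untreated and at 1.5, 6, 10 and 24 h of IAA, with 1 library at each time, and doxycycline at 1 µg/ml kept their wild-type Oct4 transgene silent throughout, also at 0 h. Every later time is set against untreated cells and not against cells given vehicle for as long. Per the labels, cells grew in N2B27 with 2 inhibitors and LIF on gelatin. The study describes a change to a medium with serum and LIF along with 4-OHT for other measurements of this deletion, and whether it was made for these libraries is not stated in the sources used here. If it was, 4-OHT and medium cannot be told apart.

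Mitochondrial DNA is transcribed from both strands as long precursors that span many genes. tRNAs lie between most of the rRNAs and mRNAs, and cutting them out of the precursor releases the other RNAs. Both rRNAs build the mitochondrial ribosome, and the 13 mRNAs encode subunits of respiratory complexes I, III and IV and of ATP synthase (complex V), whose other subunits are encoded in the nucleus. Because members are cut from shared precursors and many lie next to each other, they are not independent of each other, and a count of members is not a count of separate events.

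Sequences decide how far single members can be read. The nuclear genome holds near-identical copies of mitochondrial DNA, and 7 annotated pseudogenes on the minus strand of chromosome 1 (24611535 to 24616197, GRCm38) follow the order of the mitochondrial stretch from base 6381 to base 11042. Reads cannot be assigned between a member and its copy where both are the same. The first 60 bases of *mt-Co3* (subunit 3 of cytochrome c oxidase, complex IV) and of its copy *Gm28437* are shown because they do not differ, and capitals mark the start codon. The first 60 bases of *mt-Nd3* (a complex I subunit) and of its copy *Gm28438* are shown because the only difference over the 345 bases compared, T3C counted from the first base of *mt-Nd3*, lies there in capitals. All sequences are from the GENCODE transcripts of GRCm38.
mt-Co3 (chrM:8607-8666, plus): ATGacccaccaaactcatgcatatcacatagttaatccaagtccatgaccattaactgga
Gm28437 (chr1:24613912-24613971, minus): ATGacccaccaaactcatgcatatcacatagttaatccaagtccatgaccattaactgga
mt-Nd3 (chrM:9459-9518, plus): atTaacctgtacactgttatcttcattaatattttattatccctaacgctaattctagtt
Gm28438 (chr1:24613060-24613119, minus): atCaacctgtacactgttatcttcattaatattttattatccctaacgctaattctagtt

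Identity to the copy was 100.0% for *Gm28661* (*mt-Co2*), *Gm10925* (*mt-Atp6*), *Gm28437* (*mt-Co3*), *Gm10222* (*mt-Nd4l*) and *Gm28439*, which covers 876 bases of *mt-Nd4*. It was 99.71% for *Gm28438* (*mt-Nd3*) and 98.78% for *Gm29216*, which covers the last 492 bases of *mt-Co1*. Of the reads on a member and its copy, the copy held 49.4 to 50.3% for *mt-Co3*, 48.8 to 50.7% for *mt-Nd3*, 47.1 to 50.2% for *mt-Co2*, 46.7 to 51.3% for *mt-Nd4l* and 50.7 to 56.5% for *mt-Atp6* over the 15 libraries. It held 21.5 to 31.1% for *mt-Nd4* and 7.26 to 13.3% for *mt-Co1*, whose copies are partial. *mt-Atp8* lies inside the copied stretch with no annotated copy of its own. Reads of it placed on chromosome 1 could be listed under *Gm10925* where they reach the last 43 bases of *mt-Atp8*. Elsewhere they would not be listed under any gene. Levels of these 8 mRNAs are therefore uncertain, while *mt-Nd1*, *mt-Nd2*, *mt-Nd5*, *mt-Nd6*, *mt-Cytb* and both rRNAs had no copy in that stretch. Partial copies elsewhere of *mt-Nd2*, *mt-Nd5* and *mt-Rnr2* held at most 0.0701% of the reads. Neighbouring members also overlap, *mt-Atp8* and *mt-Atp6* by 43 bases, *mt-Nd5* and *mt-Nd6* by 14 and *mt-Nd4l* and *mt-Nd4* by 7, and the first overlap is shown with the start codon of *mt-Atp6* in capitals because reads there cannot be told apart.
mt-Atp8 and mt-Atp6 overlap (chrM:7927-7969, plus): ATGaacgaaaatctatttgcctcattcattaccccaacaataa

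**Figure D1:**
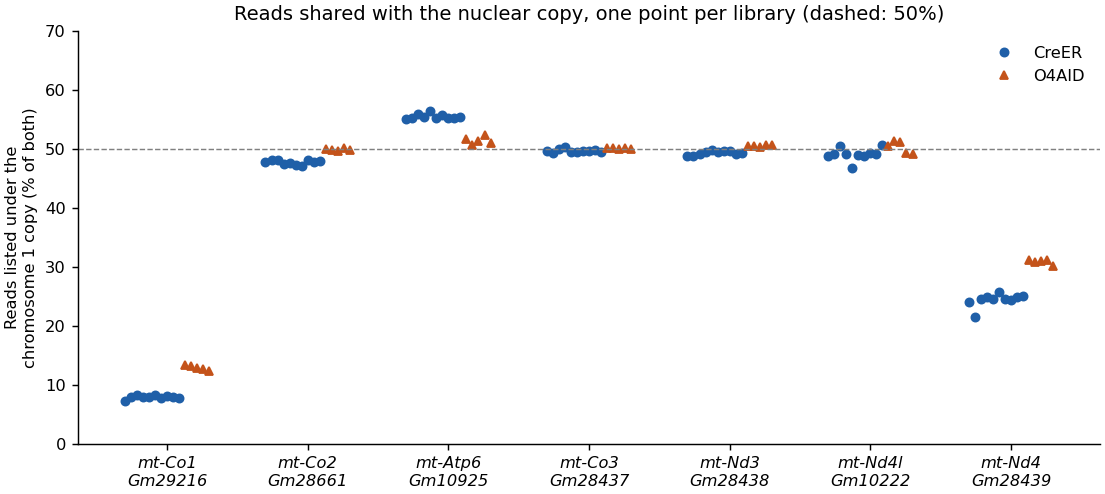
Percent of the reads of a mitochondrial member and its chromosome 1 copy that were listed under the copy, with 1 point for each of the 15 libraries (circles CreER, triangles O4AID). In 5 of the 7 pairs the points sit near the dashed line at 50%, and the partial copies of *mt-Co1* and *mt-Nd4* sit lower.

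Libraries held 21.7 to 30.8 M (mega) counted reads in CreER, and in O4AID they held 40.5 to 48.7 M. The targeted gene followed the labels in CreER, where *Pou5f1* fell from 330.0 and 324 CPM (counts per M counted reads, scaled by TMM factors) at 0 h to 115 and 128 at 36 h (log2 fold change -1.43, SE 0.05, adjusted p 4.15e-19 by edgeR's quasi-likelihood test). In O4AID the degraded protein is not read by RNA, and *Pou5f1* stood at 717 CPM at 0 h and 604 at 24 h. Marker sums are in CPM of library totals without TMM factors. The 8 ESC markers were expressed in every library, but in O4AID they summed to 6244 CPM at 0 h, 3995 at 6 h and 2179.5 at 24 h. At 24 h in O4AID, 7 of 8 ESC markers were lower by at least 0.5 on the log2 scale (11.4% of all genes). There 5 of 8 trophoblast markers were higher by at least as much (13.4% of all genes). In O4AID all 8 together summed to 93.5 CPM at 0 h, 129.9 at 6 h and 106 at 24 h. At 0 h 5 of the 8 were under 1 CPM, so their log2 changes depend on few reads. The 5 fibroblast markers summed to at most 10.2 CPM. The 8 trophoblast markers summed to 117 and 107 CPM at 0 h and to 274 and 255 at 36 h in CreER, where 8 of 8 rose. In the same comparison 2 of 8 ESC markers rose and 5 fell, where 19.4% of all genes tested rose and 17.2% fell (adjusted p under 0.05 by the same test). The part of these cell states in the results on the members was not tested. In such bulk samples fewer cells of a type and less RNA per cell cannot be told apart.

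The first question was how much of the RNA came from mitochondria. In CreER the members took 8.54 and 9.32% of counted reads at 0 h, 11.0 and 12.8% at 12 h, 10.9 and 12.2% at 18 h, 9.95 and 10.6% at 24 h, and 14.4 and 17.3% at 36 h. Both libraries of every later time were above both libraries of 0 h, and the 36 h libraries were above all others. The share did not climb steadily, since the 24 h libraries were below those of 12 and 18 h. In O4AID the members took 7.32, 7.41, 6.69, 7.70 and 10.6% at 0, 1.5, 6, 10 and 24 h, so the share dipped at 6 h before it was highest at 24 h. These shares are a description, and no test of them was made.

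The rRNAs dominated these reads although rRNA had been depleted before sequencing. They made up 92.6 to 94.2% of the members' reads in CreER and 89.5 to 91.6% in O4AID. The 13 mRNAs took 0.617 and 0.563% of counted reads at 0 h in CreER, 0.745 and 0.864% at 12 h, 0.803 and 0.829% at 18 h, 0.697 and 0.720% at 24 h, and 0.833 and 1.09% at 36 h. The 36 h replicates were thus further apart than the replicates of any other time. In O4AID the mRNA share was 0.765, 0.761, 0.671, 0.788 and 0.890% in order of time. Reads of the nuclear-encoded rRNA gene *CT010467.1* moved the opposite way in CreER, from 0.144 and 0.382% at 0 h to 0.00841 and 0.00509% at 36 h, whereas *Gm26917*, another nuclear rRNA gene by the lists used, lay between 1.66 and 1.97%. The part of rRNA depletion in the rRNA results was not tested.

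**Figure D2:**
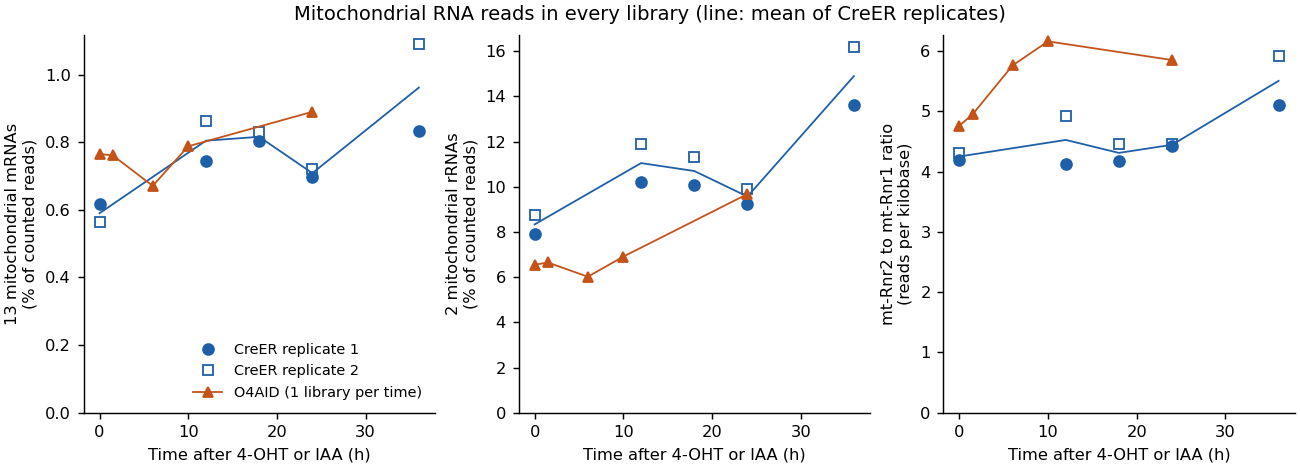
Percent of counted reads on the 13 mitochondrial mRNAs (left) and on both rRNAs (middle), and the ratio of *mt-Rnr2* to *mt-Rnr1* reads per kilobase (right), against hours of 4-OHT (CreER) or IAA (O4AID). Points are libraries and the blue line is the mean of the CreER replicates, which is highest at 36 h in all panels, while the O4AID ratio is at 5.76 to 6.16 from 6 h on after 4.76 at 0 h.

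The next question was which members changed as *Pou5f1* was deleted in CreER. Calls were made where edgeR's quasi-likelihood test gave an adjusted p under 0.05 (Benjamini-Hochberg over all genes), and 29 of the 37 members had enough reads to be tested, namely 13 mRNAs, 2 rRNAs and 14 tRNA genes. At 36 h 21 of the 29 were higher than at 0 h and 0 were lower, with 13 of 13 mRNAs, 2 of 2 rRNAs and 6 of 14 tRNA genes. Of all 18969 genes tested, 19.4% were called higher and 17.2% lower at that time. Before 36 h fewer members were called, with 0 lower at each time. Called higher were 6 at 12 h (against 0.258% of all genes higher and 0.137% lower), 6 at 18 h (4.73% and 3.79%) and 4 at 24 h (11.0% and 10.6%). Those called were *mt-Rnr1*, *mt-Tl1*, *mt-Tn*, *mt-Tc*, *mt-Atp8* and *mt-Th* at 12 h, *mt-Rnr1*, *mt-Tn*, *mt-Tc*, *mt-Atp8*, *mt-Co3* and *mt-Nd4l* at 18 h and *mt-Tl1*, *mt-Tn*, *mt-Tc* and *mt-Nd4l* at 24 h. The shares of 6 in 29 at 12 and 18 h were above those of all genes, though these counts depended on single libraries. The 24 h share of 4 in 29 was near that of all genes.

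The mRNAs had their lowest median at 24 h. The median log2 fold change of the 13 mRNAs was 0.51, 0.48, 0.27 and 0.66 after 12, 18, 24 and 36 h, and that of all genes tested was at most 0.01 at each time. From 24 h to 36 h the median was 0.45, 7 members were called higher and 0 lower, and 8.13% of all genes were called higher and 6.55% lower. The 7 were *mt-Rnr1*, *mt-Rnr2*, *mt-Atp8*, *mt-Atp6*, *mt-Co3*, *mt-Nd4l* and *mt-Ts2*. All 13 mRNAs had a positive value at each of the 4 times. Without replicate 2 of 0 h, *mt-Nd3* was at -0.04, -0.05 and -0.11 at 12, 18 and 24 h and *mt-Co3* at -0.02 at 24 h.

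The counts depended on single libraries. At 12 h the count ran from 1, without replicate 2 of 12 h, to 9 when 1 library was left out. At 36 h it was 11 without replicate 2 of 0 h in place of 21, and 8 of the 10 calls lost were mRNAs. Without replicate 2 of 36 h the count there was 16. The 10 calls at 36 h that held in every alternative in which the gene was tested were *mt-Rnr1*, *mt-Rnr2*, *mt-Nd2*, *mt-Nd4l*, *mt-Atp8*, *mt-Atp6*, *mt-Co3*, *mt-Tn*, *mt-Tc* and *mt-Te*, the last on 2 to 16 reads per CreER library. With library totals alone as the scaling, the calls over all genes at 36 h went from 3686 higher and 3262 lower to 2696 and 4802 and the median of all genes to -0.08, while 20 members were called higher.

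**Figure D3:**
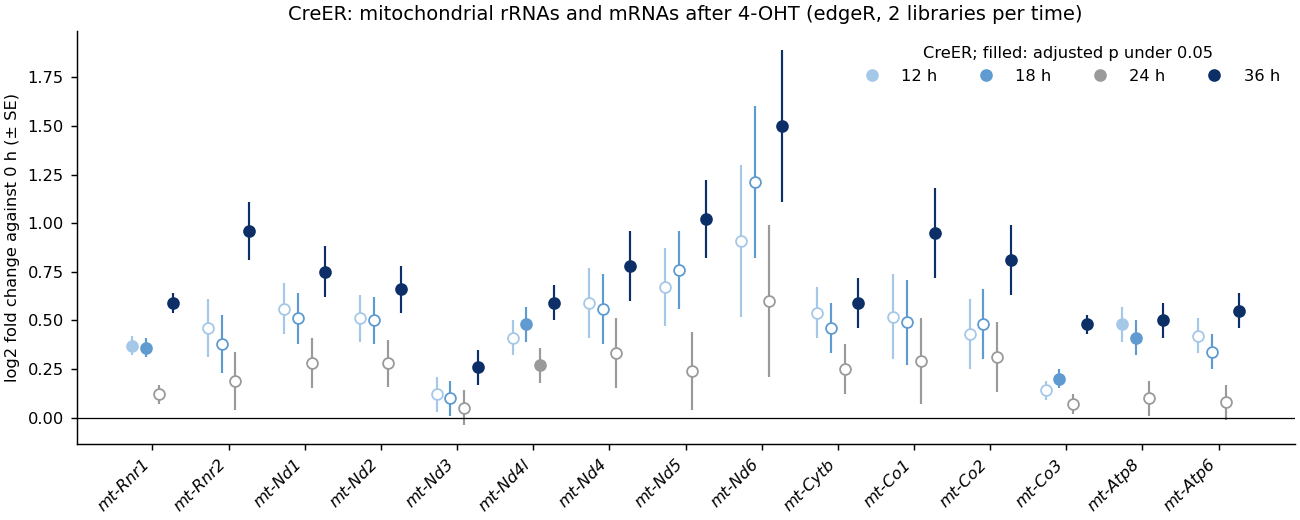
Log2 fold change against 0 h (± SE) of both mitochondrial rRNAs and the 13 mRNAs in CreER at 12, 18, 24 and 36 h of 4-OHT, from edgeR with 2 libraries per time. Filled points passed an adjusted p of 0.05, and at 36 h (dark) all 15 are filled, from 0.26 for *mt-Nd3* to 1.50 for *mt-Nd6*.

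Of the rRNAs, *mt-Rnr1* (ENSMUSG00000064337, chrM 70 to 1024, 12S rRNA of the small ribosomal subunit) stood at 9759 and 10643 CPM at 0 h, 13081 and 13319 at 12 h, 12707 and 13533 at 18 h, 10686 and 11502 at 24 h, and 14867 and 15819 at 36 h. Each later library was above both 0 h libraries. By 36 h it had risen by 0.59 on the log2 scale (SE 0.05, adjusted p 2.12e-09). It had already risen by 0.37 after 12 h (adjusted p 0.000397) and 0.36 after 18 h (adjusted p 2.35e-05), whereas the value of 0.12 after 24 h did not pass (adjusted p 0.0627). *mt-Rnr2* (ENSMUSG00000064339, chrM 1094 to 2675, 16S rRNA of the large ribosomal subunit) stood at 67972 and 75766 CPM at 0 h and at 125514 and 154809.8 at 36 h. Its log2 fold change of 0.96 (SE 0.15, adjusted p 0.00568) was 1.95-fold. Its values of 0.46, 0.38 and 0.19 after 12, 18 and 24 h did not pass, and its libraries lay above both 0 h libraries. Here and below such a separation of 2 from 2 libraries is a description and no test. Every time is set against the same 0 h libraries, and the share of all genes that separate this way is not given here.

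The ratio of the rRNAs differed between times as well. Per length, *mt-Rnr2* held 4.20 and 4.30 times the reads of *mt-Rnr1* at 0 h in CreER. It held 4.13 and 4.92 times as many after 12 h, 4.17 and 4.45 after 18 h, 4.43 and 4.46 after 24 h, and 5.10 and 5.91 after 36 h. The 36 h libraries were above the other 8, which ran from 4.13 to 4.92. In O4AID the ratio was 4.76, 4.95, 5.76, 6.16 and 5.85 in order of time. The ratio was thus higher in the last CreER time and in the last 3 O4AID libraries than in untreated cells of the same kind, a difference that was not tested.

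Complex I, which takes electrons from NADH, has 7 subunits among the members. *mt-Nd1* (ENSMUSG00000064341, chrM 2751 to 3707) went from 931 and 849.8 CPM at 0 h to 1195 and 1429.7 at 12 h, 1265 and 1274 at 18 h, 1059 and 1096 at 24 h, and 1335 and 1658 at 36 h. Its log2 fold change at 36 h was 0.75 (SE 0.13, adjusted p 0.00807). *mt-Nd2* (ENSMUSG00000064345, chrM 3914 to 4951) went from 532 and 458 CPM at 0 h to 703 and 859.6 at 36 h, a change of 0.66 (SE 0.12, adjusted p 0.00761). Both genes were above their 0 h libraries at every time, but neither passed the test at 12, 18 and 24 h.

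*mt-Nd5* (ENSMUSG00000064367, chrM 11742 to 13565) went from 418 and 352 CPM at 0 h to 658 and 910.4 at 36 h, a change of 1.02 (SE 0.20, adjusted p 0.0120). *mt-Nd6* (ENSMUSG00000064368, chrM 13552 to 14070) is the only mRNA encoded on the minus strand. It showed the largest change of the 13, but its 0 h libraries also lay far apart, with 172 and 87.2 CPM, or 4290 and 2578 reads. Its later libraries held 231 and 255 CPM at 12 h, 262 and 336 at 18 h, 179.7 and 211 at 24 h, and 285 and 444 at 36 h. All were above both 0 h libraries, and the change of 1.50 at 36 h (SE 0.39, adjusted p 0.0335) was lost in 10 of 18 alternatives and was 1.08 without replicate 2 of 0 h. Whether reads were counted by strand was not stated, so reads of *mt-Nd6* and of antisense RNA over it cannot be told apart. Over the alternatives its adjusted p ran from 0.000792 to 0.140.

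*mt-Nd4l* and *mt-Nd4* are neighbours that share a transcript. *mt-Nd4l* (ENSMUSG00000065947, chrM 9877 to 10173) went from 19.0 and 16.9 CPM at 0 h to 22.0 and 25.8 at 12 h, 26.0 and 24.1 at 18 h, 22.8 and 20.1 at 24 h and 25.0 and 29.1 at 36 h. It was the only mRNA called at 24 h, at 0.27 (adjusted p 0.0434), and it was at 0.59 at 36 h (SE 0.09, adjusted p 2.57e-05). The 24 h call was lost in 4 of the 10 fits that left out 1 library (adjusted p up to 0.387). *mt-Nd4* (ENSMUSG00000064363, chrM 10167 to 11544) went from 207 and 157 CPM to 278 and 348 at 36 h, a change of 0.78 (SE 0.18, adjusted p 0.0207). *mt-Nd3* (ENSMUSG00000064360, chrM 9459 to 9806) moved least, from 136 and 109 CPM at 0 h to 147 and 145 at 36 h. Its change of 0.26 (SE 0.09, adjusted p 0.0478) was lost in 12 of 18 alternatives, over which adjusted p ran from 2.94e-07 to 0.268.

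*mt-Cytb* (ENSMUSG00000064370, chrM 14145 to 15288), the only member of complex III, which passes electrons on to cytochrome c, went from 354 and 332 CPM at 0 h to 456 and 542 at 12 h, 476 and 469 at 18 h, 402 and 411 at 24 h, and 461 and 575 at 36 h. No later time overlapped 0 h, but only the change at 36 h passed the test, at 0.59 (SE 0.13, adjusted p 0.0150).

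Complex IV, which passes electrons to oxygen, has 3 subunits here. *mt-Co1* (ENSMUSG00000064351, chrM 5328 to 6872) was the mRNA with the most reads, at 1856 and 1893 CPM at 0 h, 2315 and 3052 at 12 h, 2571 and 2687 at 18 h, 2189.7 and 2388 at 24 h, and 2889 and 4331 at 36 h. Its replicates lay close at 0 h and far apart at 36 h, and the change of 0.95 (SE 0.23, adjusted p 0.0250) was lost in 7 of 18 alternatives, over which adjusted p ran from 0.000228 to 0.105. *mt-Co2* (ENSMUSG00000064354, chrM 7013 to 7696) went from 185 and 192 CPM to 276 and 387, a change of 0.81 (SE 0.18, adjusted p 0.0191). *mt-Co3* (ENSMUSG00000064358, chrM 8607 to 9390) went from 727 and 639.7 CPM to 915 and 996. Its smaller change of 0.48 had the lowest adjusted p of the mRNAs (SE 0.05, adjusted p 2.19e-07), and it also passed at 18 h with 0.20 (adjusted p 0.0200), a call lost in 2 of the 10 fits that left out 1 library and at 0.11 without replicate 2 of 0 h. Its copy *Gm28437* was at 0.49 at 36 h (adjusted p 4.75e-07), but its reads cannot be told from those of *mt-Co3* and are no separate evidence.

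ATP synthase, which makes ATP from the proton gradient, has a pair of subunits here. *mt-Atp8* (ENSMUSG00000064356, chrM 7766 to 7969) stood at 84.9 and 77.3 CPM at 0 h, 108 and 119 at 12 h, 109 and 106 at 18 h, 84.2 and 89.8 at 24 h, and 104 and 126 at 36 h. It was called after 12 h (0.48, adjusted p 0.0491), 18 h (0.41, adjusted p 0.0150) and 36 h (0.50, SE 0.09, adjusted p 0.000865), whereas at 24 h its libraries overlapped those of 0 h. With 1 library left out, the 12 h call was lost in 8 of 10 fits (adjusted p up to 0.386) and the 18 h call in 3 (up to 0.162). *mt-Atp6* (ENSMUSG00000064357, chrM 7927 to 8607) went from 432 and 390.4 CPM to 549 and 652 at 36 h, a change of 0.55 (SE 0.09, adjusted p 0.00195), and it too overlapped 0 h at 24 h. With the reads of the chromosome 1 copies added to their members, 20 members were called higher at 36 h in place of 21 and the median of the mRNAs was 0.66 as before.

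tRNA genes held few reads. Their listed length is 59 to 75 bases, and together they took 0.00340 to 0.00538% of counted reads in CreER and 0.00121 to 0.00187% in O4AID, and reads of tRNAs cannot be told apart there from reads of precursors that span them. *mt-Tf* held 0 reads in all 15 libraries, and 8 of the 22 did not pass the filter in CreER. Only 4 had at least 30 reads in every library. They are shown with the anticodon in capitals because the tRNA results with the most reads rest on them. Of these, 3 lie on the minus strand. Whether reads were counted by strand was not stated, so reads of these 3 and of antisense RNA over them cannot be told apart.
mt-Tn (chrM:5089-5159, minus, asparagine): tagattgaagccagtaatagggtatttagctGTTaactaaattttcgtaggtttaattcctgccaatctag
mt-Tc (chrM:5192-5257, minus, cysteine): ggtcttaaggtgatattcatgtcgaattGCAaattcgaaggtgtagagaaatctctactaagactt
mt-Tp (chrM:15356-15422, minus, proline): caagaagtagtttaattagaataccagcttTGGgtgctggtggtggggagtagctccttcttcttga
mt-Th (chrM:11546-11612, plus, histidine): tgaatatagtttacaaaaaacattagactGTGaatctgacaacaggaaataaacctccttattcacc

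*mt-Tn* and *mt-Tc* were the only members called at all 4 times. *mt-Tn* stood at 14.2 and 12.7 CPM at 0 h, 18.6 and 19.1 at 12 h, 19.5 and 24.2 at 18 h, 18.2 and 19.7 at 24 h, and 19.6 and 18.5 at 36 h. After 12 h it had risen by 0.49 (adjusted p 0.0112), after 18 h by 0.71 (adjusted p 7.62e-06), after 24 h by 0.50 (adjusted p 0.000290) and after 36 h by 0.51 (SE 0.10, adjusted p 0.000124). *mt-Tc* stood at 7.34 and 7.68 CPM at 0 h and 10.2 and 12.1 at 36 h, with rises of 0.63 (adjusted p 0.00549), 0.69 and 0.56 after 12, 18 and 24 h and of 0.56 after 36 h (SE 0.11, adjusted p 0.000240). From 24 h to 36 h *mt-Tn* was at 0.01 and *mt-Tc* at -0.001, each with an SE of at most 0.10. That last step was thus smaller than its error for both. With 1 library left out, the 12 h call was lost in 3 of 10 fits for *mt-Tn* (adjusted p up to 0.214) and in 2 for *mt-Tc* (up to 0.122).

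*mt-Th* had risen by 0.97 after 12 h (adjusted p 0.0276) and by 0.74 after 36 h (SE 0.22, adjusted p 0.00908), from 2.65 and 1.56 CPM at 0 h. Without replicate 2 of 0 h these were 0.61 (adjusted p 0.464) and 0.38 (adjusted p 0.237), and the 12 h call was lost in 4 of 10 fits that left out 1 library. *mt-Tp*, with 7.38 and 7.57 CPM at 0 h and 7.72 and 7.59 at 36 h, was at 0.03 (SE 0.13, adjusted p 0.871), a difference far smaller than its error. Among the other tRNA genes tested, *mt-Te* (2.94), *mt-Tl1* (1.25) and *mt-Ts2* (1.21) passed at 36 h, while *mt-Tw* (1.19), *mt-Ta* (1.06), *mt-Ti* (0.79), *mt-Tr* (0.77), *mt-Ty* (0.73), *mt-Tl2* (0.26) and *mt-Tm* (-0.18) did not. Each of these 10 held between 2 and 45 reads in a CreER library, so their fold changes depend on a few reads. *mt-Tl1* was also called at 12 and 24 h, calls lost in 7 and 3 of 10 such fits. The median of the 14 tRNA genes was 0.69, 0.67, 0.46 and 0.75 at 12, 18, 24 and 36 h, and without replicate 2 of 0 h it was 0.42, 0.21, 0.17 and 0.50.

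In O4AID each time is 1 library, so changes are log2 ratios of CPM plus 1 with counting intervals of 95% and describe the libraries alone. The spread between cultures is not known. A change of at least 0.5 was taken as a mark, and of the 24 or 25 members with a mean of at least 10 reads, 0 passed it at 1.5 h in either direction. The same mark was passed by 0.526% of all such genes upwards and 0.790% downwards. At 6 h 0 members were past it upwards and 4 downwards (3.32% and 3.29% of all genes), at 10 h 0 and 1 (5.94% and 5.02%) and at 24 h 0 and 0 (13.4% and 11.4%).

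The O4AID mRNAs were lower at 6 h and back near 0 h levels at 24 h. The median of the 13 was -0.09, -0.33, -0.14 and 0.06 in order of time, where the median of all genes was -0.01 to -0.002. At 6 h all 13 mRNAs and both rRNAs were below 0 h, from -0.09 for *mt-Co3* to -0.61 for *mt-Nd6*. The members past the mark at 6 h were *mt-Nd6*, *mt-Atp8*, *mt-Tw* and *mt-Tp*, and at 10 h it was *mt-Tp*. At 24 h 10 of 13 mRNAs were above 0 h.

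*mt-Nd6* had the lowest change of the mRNAs at 1.5, 6, 10 and 24 h, with 312, 245, 205, 249 and 277 CPM in order of time. Its changes were -0.35, -0.61 (95% interval -0.66 to -0.55), -0.32 and -0.17. *mt-Nd5*, which overlaps it on the other strand, was at -0.24, -0.45, -0.25 and -0.12. Both were below 0 h in every treated O4AID library.

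*mt-Atp6* was the mRNA highest above 0 h at 24 h, with 848, 928, 705, 885 and 1158 CPM in order of time and a change of 0.45 (0.42 to 0.48). *mt-Atp8* went from 41.7 to 45.3 CPM, a change of 0.12 (-0.003 to 0.24). The intervals of these overlapping partners did not overlap. *mt-Co3* was at 0.28 (0.26 to 0.31), *mt-Nd1* at 0.19 (0.15 to 0.22), *mt-Nd2* at 0.16, *mt-Co2* at 0.08, *mt-Cytb* at 0.06, *mt-Nd4l* at 0.05, *mt-Nd4* at 0.03 and *mt-Co1* at 0.01 at 24 h, and *mt-Nd3* was at -0.13 (-0.17 to -0.09).

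Both rRNAs were above 0 h at 24 h. *mt-Rnr2* stood at 60391, 60174, 54092, 62206 and 84728 CPM in order of time, a change of 0.49 at 24 h, and *mt-Rnr1* at 7652, 7341, 5669.7, 6098 and 8738 CPM, a change of 0.19. *mt-Rnr1* was at -0.43 at 6 h, where *mt-Rnr2* was at -0.16. Reads of *CT010467.1* went from 0.446% at 0 h to 0.0139% at 10 h and stood at 0.0977% at 24 h. Of the tRNA genes, *mt-Tn* was at 0.49 (0.18 to 0.80) and *mt-Tc* at 0.37 (0.05 to 0.69) at 24 h, and *mt-Tp* was at -0.54 (-0.91 to -0.17) at 6 h.

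**Figure D4:**
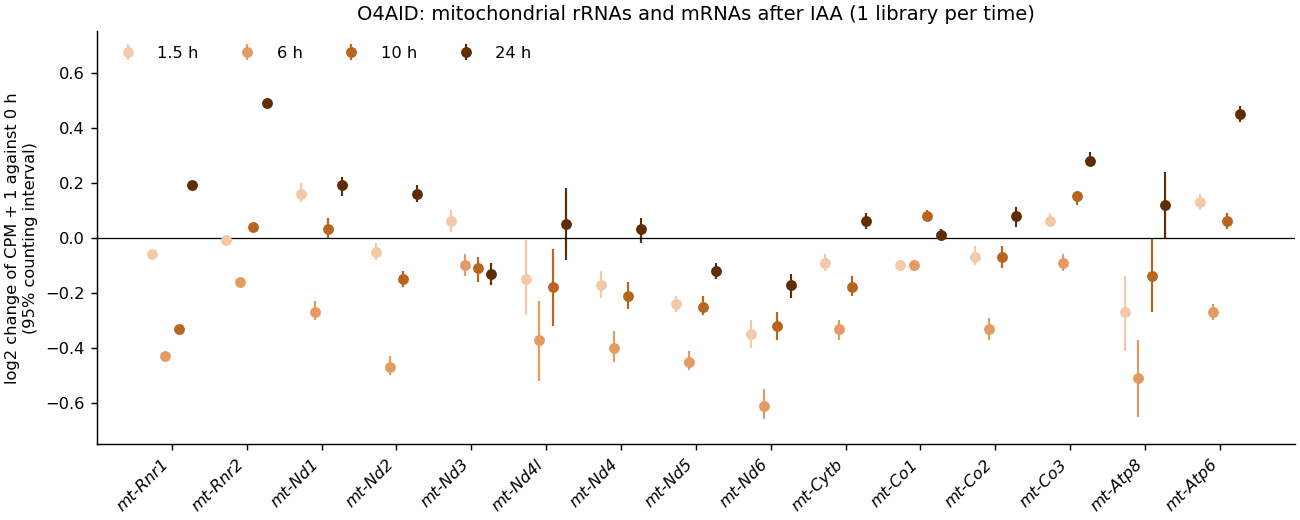
Log2 change of CPM plus 1 against 0 h of both mitochondrial rRNAs and the 13 mRNAs in O4AID at 1.5, 6, 10 and 24 h of IAA, with 1 library per time and 95% counting intervals. At 6 h all 15 lie below 0, and at 24 h *mt-Rnr2* (0.49) and *mt-Atp6* (0.45) lie highest.

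At 24 h, the treated time that both kinds of ESC share, each CreER replicate was set against the mean of the 0 h libraries. These changes were placed beside those of O4AID on the same scale of CPM plus 1. *mt-Atp6* was at 0.04 and 0.12 in CreER and 0.45 in O4AID, *mt-Rnr2* at 0.12 and 0.24 against 0.49, and *mt-Co3* at 0.07 and 0.05 against 0.28. *mt-Co2* was at 0.31 and 0.31 against 0.08, *mt-Nd4* at 0.34 and 0.31 against 0.03, and *mt-Co1* at 0.22 and 0.34 against 0.01. *mt-Nd6* was at 0.47 and 0.69 in CreER and -0.17 in O4AID, and *mt-Nd5* at 0.18 and 0.28 against -0.12. *mt-Tn* (0.41 and 0.51 against 0.49) and *mt-Tc* (0.43 and 0.58 against 0.37) were on the same side in both. Line, strain, doxycycline (given to O4AID alone), read depth and route of OCT4 loss differ together, and so does medium if it was changed for CreER. With 1 O4AID library no difference was tested.

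In cells without 4-OHT or IAA the make-up of the mitochondrial mRNAs was unlike between both kinds, which is described without a test since O4AID has 1 library. O4AID cells were on doxycycline also at 0 h and CreER cells were not, so doxycycline, line, strain and read depth cannot be told apart. Per length, *mt-Nd3* was 6.10 and 5.43% of the 13 mRNAs in the CreER libraries and 13.9% in O4AID. *mt-Nd1* was 15.2 and 15.5% against 6.34%, *mt-Atp8* 6.49 and 6.60% against 2.25%, and *mt-Co1* 18.7 and 21.4% against 12.9%. *mt-Co2* was 4.23 and 4.90% against 7.94%, and *mt-Atp6* 9.90 and 9.99% against 13.7%. *mt-Nd2* (7.99 and 7.70% against 7.96%) and *mt-Co3* (14.5 and 14.2% against 13.9%) were close in all 3 libraries. With the reads of the chromosome 1 copies added, *mt-Nd3* was 8.56 and 7.62% against 18.1% and *mt-Nd1* 10.9 and 11.1% against 4.09%. The direction thus held for both. *mt-Co3* was then less close, at 20.6 and 20.2% against 17.9%. In order of level per length, *mt-Co1*, *mt-Nd1* and *mt-Co3* led in CreER, while *mt-Co3*, *mt-Nd3* and *mt-Atp6* led in O4AID at 13.9, 13.9 and 13.7%, and *mt-Nd4l* was lowest in all 3. This order depended on the copies, since with them added *mt-Co3* led in CreER (20.6 and 20.2%) and *mt-Atp6* in O4AID (18.3%). With the copies, *mt-Atp8* was lowest in O4AID, at 1.45% against 1.85% for *mt-Nd4l*.

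**Figure D5:**
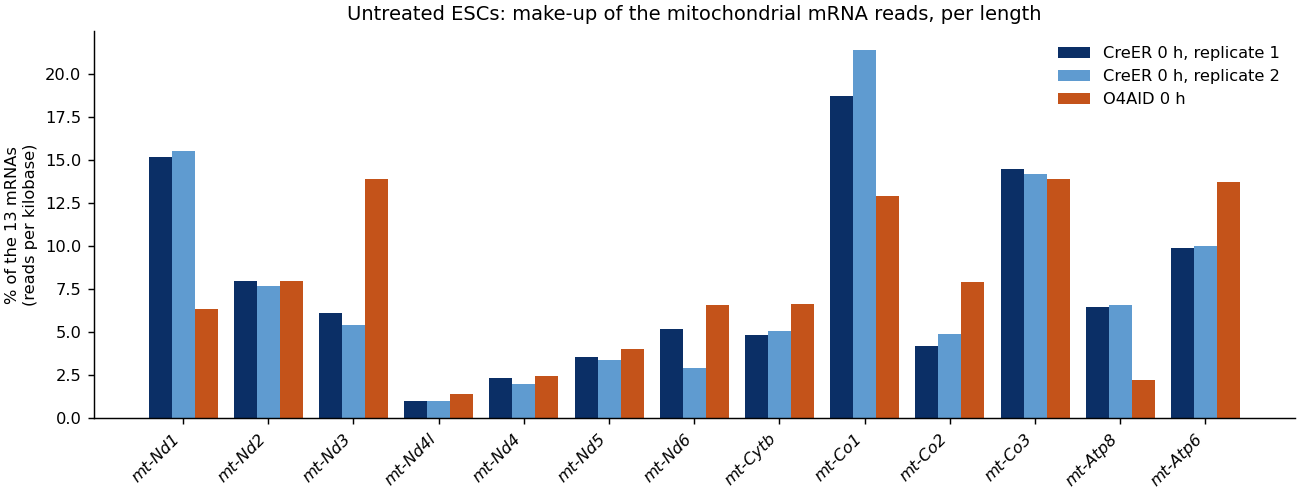
Percent of the reads per kilobase of the 13 mitochondrial mRNAs taken by each mRNA in untreated ESCs, with a bar for each CreER replicate and for the O4AID library. *mt-Nd3* and *mt-Co2* stand higher and *mt-Nd1* and *mt-Atp8* lower in O4AID than in both CreER libraries.

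The 4 tRNA genes with the most reads were also lower in O4AID at 0 h, described without a test. Here too doxycycline, line, strain and read depth differ together. In RPKM (reads per kilobase of listed length and per M counted reads), *mt-Tn* stood at 204 and 182 in CreER and 52.0 in O4AID, *mt-Tc* at 113 and 118 against 55.4, *mt-Tp* at 112 and 115 against 55.1 and *mt-Th* at 40.2 and 23.5 against 11.3. This did not hold for every tRNA gene, since *mt-Tw* was at 4.88 and 3.07 against 12.3 and *mt-Tl1* at 7.08 and 3.65 against 6.02. On the same scale *mt-Rnr1* was at 10407 and 11291 against 7712 and *mt-Rnr2* at 43756 and 48521 against 36742.

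Mitochondrial RNA is made, cut, kept and translated by proteins of nuclear genes, and few of these rose in CreER, where 19.4% of all genes tested rose and 17.2% fell at 36 h. Of 18 genes of mitochondrial transcription and DNA maintenance, 0 rose and 6 fell at 36 h, with a median of -0.08. *Tefm*, the elongation factor of mitochondrial transcription, fell by 0.66 on the log2 scale (SE 0.09, adjusted p 7.16e-07), from 19.1 and 20.3 CPM to 12.1 and 13. *Ssbp1*, which coats single-stranded mitochondrial DNA, fell by 0.48 (adjusted p 4.88e-07) and *Mterf1a*, a termination factor, by 0.42 (adjusted p 0.00966).

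Of 21 genes of mitochondrial RNA processing, stability and decay, 1 rose and 12 fell at 36 h, with a median of -0.15. *Fastkd1* rose by 0.27 (adjusted p 0.00263), while *Fastkd5* fell by 0.43 (adjusted p 0.000407), *Ptcd2* by 0.37 (adjusted p 9.29e-05) and *Supv3l1*, a helicase of the RNA degradation machinery, by 0.31 (adjusted p 1.27e-05). Of 17 genes of mitochondrial ribosome assembly and translation, 0 rose and 5 fell, with a median of -0.09. Those that fell most were *Mtg1* by 0.51 (adjusted p 0.000144), the rRNA methyltransferase *Nsun4* by 0.48 (adjusted p 0.000123) and the elongation factor *Tufm* by 0.41 (adjusted p 0.0246).

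Of 12 regulators of mitochondrial biogenesis 10 were tested, and 1 rose and 6 fell, with a median of -0.15. *Myc* fell by 1.21 (SE 0.09, adjusted p 1.22e-11), from 24.9 and 25.3 CPM to 10.7 and 11, *Ppargc1b* by 0.73 (adjusted p 0.0172) and *Gabpa* by 0.24 (adjusted p 9.02e-05). *Pparg* rose by 1.37 (adjusted p 0.0177) but stayed under 1 CPM.

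In CreER the nuclear subunits that pair with the members moved little. Of 7 core subunits of complex I, 0 rose and 0 fell at 36 h, with values from -0.08 to 0.08. Of 13 subunits of complexes III, IV and V, 1 rose and 3 fell. *Cox4i1* of complex IV rose by 0.28 (adjusted p 8.17e-07), from 425 and 419 CPM to 513 and 514, and *Cyc1* of complex III fell by 0.35 (adjusted p 9.55e-07), *Cox7c* by 0.24 (adjusted p 0.0443) and *Uqcrc1* by 0.11 (adjusted p 0.0248). In O4AID at 24 h these 13 had a median of -0.35 and ran from -0.55 to -0.05, so all 13 were below 0 h. The median was -0.18 for the 7 of complex I, and -0.08 and -0.18 for the transcription and processing lists. At that time the median of all genes was -0.01, and 13.4% of them were past 0.5 upwards and 11.4% downwards. Of these lists 0 genes were past it upwards. Past it downwards were 2 of 21 in the processing list, 1 of 8 in the biogenesis list and 2 of 13 in complexes III, IV and V, shares near that of all genes. The lowest of each, named after their values were seen, were *Grsf1*, an RNA granule protein, at -0.95, *Esrrb*, also a pluripotency gene, at -2.81 and *Cyc1* at -0.55.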

How the data were processed

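Total RNA was depleted of rRNA and sequenced as directional libraries from mouse ESCs. Per the labels and the study's methods, the authors trimmed reads with Trim Galore 0.1.4, aligned them with TopHat2 2.1.0 to GRCm38/mm10 and deposited raw counts per gene from featureCounts 1.5.1; strand and multi-mapping settings are not given in the sources used here. Each table held 48801 entries, of which 92 spike-ins with 0 reads were left out. Members and gene lists were chosen with earlier results of these data known. edgeR 4.0.16 (R 4.3.3) fitted all 10 CreER libraries (TMM, filterByExpr, prior count 0.125, Benjamini-Hochberg over 18969 genes), with DESeq2 1.42.0 as an alternative; SE is the log2 fold change over the root of F. The labels do not say that replicates were separate cultures, so p-values measure the spread between these libraries, which may be technical. Replicates differed beyond counting noise (chi-square per degree of freedom 3.27 to 7.76). O4AID values are log2 ratios of TMM CPM plus 1, with 95% Wilson intervals carried to the ratio, which cover counting error only. Named are all mRNAs and rRNAs, the tRNA genes tested, and of each nuclear list up to 3 genes that rose and 3 that fell most at 36 h. The scripts were tested on simulated data. Alternatives were other scalings, filters, pseudocounts, added copy reads, a replicate block and leaving out each CreER library.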

Additional observations from a re-analysis of the deposited data

Results flagged for a closer look

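At 24 h, 8 of the 29 members tested in CreER lay on the opposite side of 0 h in the O4AID library from both CreER libraries. Values are log2 changes with 1 added to each CPM, and each CreER library was set against the mean of the 0 h libraries. The share of all genes that do the same is not given here. For *mt-Nd3*, *mt-Ta* and *mt-Tr* the CreER libraries of 24 h overlapped those of 0 h. The difference was not tested, and O4AID has 1 library. Of the 8, 3 are mRNAs: *mt-Nd6* (-0.17 in O4AID, 0.47 and 0.69 in CreER), *mt-Nd5* (-0.12, against 0.18 and 0.28) and *mt-Nd3* (-0.13, against 0.08 and 0.002). The others are tRNA genes with at most 30 O4AID reads at either time: *mt-Tl1* (-0.14, against 0.45 and 0.34), *mt-Ta* (-0.19, against 0.28 and 0.002), *mt-Te* (-0.12, against 0.37 and 0.05), *mt-Tr* (-0.03, against 0.20 and 0.12) and *mt-Tm* (0.12, against -0.13 and -0.14).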

How the results depend on the processing

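All values below are log2 changes or counts of members, and no cause was tested. Leaving out each CreER library in turn gave 1 to 9 members called higher at 12 h, 4 to 11 at 18 h, 3 to 7 at 24 h, 11 to 20 at 36 h and 4 to 12 from 24 to 36 h, with 0 lower throughout. It gave medians of the mRNAs of 0.41 to 0.58, 0.39 to 0.51, 0.17 to 0.29, 0.50 to 0.80 and 0.29 to 0.58, and of the tRNA genes of 0.42 to 1.03, 0.21 to 0.73, 0.17 to 0.55, 0.50 to 1.08 and 0.19 to 0.47. The lowest count was without replicate 2 of 12 h at 12 h and without replicate 2 of 0 h at 36 h. It was reached without replicate 2 of 0 h or of 18 h at 18 h, without any of 4 libraries at 24 h, and without either 24 h library or replicate 2 of 36 h from 24 to 36 h.

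Signs turned for some members when 1 library was left out. *mt-Nd3* ran from -0.04 to 0.28, from -0.05 to 0.27 and from -0.11 to 0.22 after 12, 18 and 24 h, *mt-Co3* from -0.02 to 0.16 after 24 h and *mt-Tr* from -0.001 to 2.07 after 36 h, each lowest without replicate 2 of 0 h. *mt-Tl2* ran from -0.22 (without replicate 2 of 36 h) to 0.68 after 36 h. *mt-Tp* ran from -0.45 to 0.03 after 12 h, from -0.19 to 0.06 after 24 h and from -0.03 to 0.22 between 24 and 36 h. From 24 to 36 h, *mt-Tn* was between -0.05 and 0.07 and *mt-Tc* between -0.11 and 0.12 with 1 library left out, with turned values of -0.05 and -0.03, and of 0.003, 0.08 and 0.12. With library totals as the scaling, *mt-Tn* was at -0.10 from 24 to 36 h and *mt-Tp* at -0.05 at 36 h and -0.01 from 24 to 36 h. None of these had passed the test.

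DESeq2 called 13 members at 18 h, 2 at 24 h and 11 from 24 to 36 h, and library totals called 10 at 18 h. DESeq2 called 518 and 471 genes of all higher and lower at 18 h (897 and 719 by edgeR) and 1163 and 1432 at 24 h (2084 and 2005), and without a filter 136 and 86 were called at 12 h (49 and 26). With library totals higher calls made up 36.9, 61.3 and 36.0% of calls after 12, 24 and 36 h (65.3, 51.0 and 53.1% by TMM) and 17.5% (55.4%) from 24 to 36 h. The median of the mRNAs from 24 to 36 h was then 0.34, and that of the tRNA genes 0.67 at 36 h and 0.14 from 24 to 36 h. With at least 10 counts in every library the tRNA medians were 0.45, 0.40, 0.24, 0.53 and 0.13, and with no filter 0.59 at 12 h.

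With rRNA left out of the total, the mRNA share was 0.685 and 0.632% at 0 h, 0.847 and 1.00% at 12 h, 0.914 and 0.953% at 18 h, 0.783 and 0.818% at 24 h and 0.983 and 1.32% at 36 h in CreER, and 0.830, 0.824, 0.721, 0.854 and 0.995% in O4AID. The O4AID medians were -0.06, -0.27, -0.07 and 0.17 with library totals, -0.08, -0.32, -0.12 and 0.08 with nuclear genes alone in the scaling, 0.07 at 24 h with RLE and -0.12 at 10 h with a pseudocount of 5. O4AID members past 0.5 were 1 higher and 2 lower at 1.5 h, 1 higher at 10 h, and 2 higher and 1 lower at 24 h with a pseudocount of 0.1. With library totals they were 2 lower at 6 h, 0 lower at 10 h and 3 higher at 24 h, with a pseudocount of 5 they were 1 lower at 6 h and 0 lower at 10 h, and at 24 h 1 was higher with RLE and 2 with nuclear genes alone. The 24 h median of CreER replicate 1 was 0.26 with library totals.

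Replicate numbers were not taken to pair the libraries, since same-numbered libraries of 10 pairs of times correlated at -0.0409 to 0.0778 over all genes. Over the members alone the correlations ran from -0.26 (0 and 36 h) to 0.448 (18 and 24 h). With the replicate number as a block, 7, 8, 5, 20 and 7 members were called higher. Depth limits the tRNA genes most, of which 4 held at least 30 reads in every library.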

Other observations

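Within the 13 mRNAs, per length, the make-up differed between times. In CreER *mt-Nd3* was 6.10 and 5.43% at 0 h, 4.97 and 4.16% at 12 h, 4.42 and 4.58% at 18 h, 5.33 and 4.89% at 24 h, and 4.78 and 3.66% at 36 h. *mt-Nd6* was 5.17 and 2.93%, 5.72 and 5.47%, 6.14 and 7.57%, 4.98 and 5.62%, and 6.21 and 7.51% in the same order. *mt-Atp8* was 6.49 and 6.60% at 0 h, 6.80 and 6.48% at 12 h and 5.77 and 5.42% at 36 h. In O4AID *mt-Atp6* went from 13.7% at 0 h to 17.2% at 24 h and *mt-Nd3* from 13.9 to 11.7%, while *mt-Nd1* stood at 6.34 and 6.64%. These shares sum to a fixed total, so a rise of one member lowers the others, and no test was made.

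Across the 13 mRNAs, the change at 36 h in CreER and at 24 h in O4AID had a Pearson r of -0.47 and a Spearman rho of -0.46. Listed length and the CreER change at 36 h had an r of 0.35 and a rho of 0.54, and length and the O4AID change an r of -0.14 and a rho of -0.10. These are descriptions over 13 genes that share precursors and libraries, and 8 of them have reads that cannot be assigned between mitochondrial DNA and chromosome 1.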
